A study of Mus musculus with 37 samples.

Results

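Arrays at the 2 ends of the range of immediate early gene expression were compared among the hippocampi of 37 mice. The choice of arrays rested on 4 genes, *Fos*, *Egr1*, *Junb* and *Arc*, each measured by 1 probe that was detected on at least 19 arrays. The log2 signal of each probe was standardized over the 37 arrays, and the mean of the 4 standardized values (z-scores) gave a score per mouse. The 12 mice with the highest scores and the 12 with the lowest were compared, 24 of 37 in all, and the 13 middle mice were used as described further on. All mice were females of 3 to 4 months from 1 population, CSS15F2, for which the labels name no treatment. It is an intercross in which a C57BL/6J host carries A/J donor sequence on chromosome 15 and that chromosome alone segregates. According to the paper, mice of this population had been tested in a light-dark box, an elevated plus maze, an open field and an automated home cage. RNA came from punches of the frozen left hippocampus, 1 array per mouse, and neither the genotype nor the behavior of single mice was used here. The labels hold no groups, so the high-score and low-score groups were made from the measured values themselves, and every difference in the 4 genes between them is a description.

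Immediate early genes are transcribed within minutes of synaptic activity or growth factor signaling, without need for new protein synthesis. In hippocampal neurons, calcium entry and the MAP kinase cascade act on transcription factors already bound at their promoters, chiefly CREB, which binds the cAMP response element, and SRF with its ternary complex partners. *Fos* and *Junb* encode subunits of the AP-1 transcription factor, *Egr1* encodes a zinc finger transcription factor, and *Arc* encodes a postsynaptic protein that promotes the removal of AMPA receptors from synapses. Feedback genes such as *Dusp1*, a phosphatase of MAP kinases, are induced by the same signal and limit it.

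Of the 4 genes and *Dusp1*, the RefSeq promoter table matched *Fos*, *Junb* and *Dusp1*, and held no entry for *Egr1* or *Arc*. The matched promoters are shown for the letters that CREB binds close to their start sites. RefSeq sequences of build GRCm38.p6 were searched on both strands in the 250 bases before each start. Capitals mark TGACGTCA, the full cAMP response element, and TGACG, its core, in the printed direction.
*Fos*, chr12:85473640-85473889, plus strand: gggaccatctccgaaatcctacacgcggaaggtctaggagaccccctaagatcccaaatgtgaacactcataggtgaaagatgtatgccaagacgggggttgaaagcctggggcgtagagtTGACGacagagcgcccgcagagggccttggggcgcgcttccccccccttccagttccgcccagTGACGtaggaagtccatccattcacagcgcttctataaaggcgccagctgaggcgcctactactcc
*Junb*, chr8:84978749-84978998, minus strand: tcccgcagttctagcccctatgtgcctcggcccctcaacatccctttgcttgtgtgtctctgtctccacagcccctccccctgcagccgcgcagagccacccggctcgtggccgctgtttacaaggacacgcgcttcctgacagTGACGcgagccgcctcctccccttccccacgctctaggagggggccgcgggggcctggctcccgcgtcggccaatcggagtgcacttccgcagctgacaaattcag
*Dusp1*, chr17:26508473-26508722, minus strand: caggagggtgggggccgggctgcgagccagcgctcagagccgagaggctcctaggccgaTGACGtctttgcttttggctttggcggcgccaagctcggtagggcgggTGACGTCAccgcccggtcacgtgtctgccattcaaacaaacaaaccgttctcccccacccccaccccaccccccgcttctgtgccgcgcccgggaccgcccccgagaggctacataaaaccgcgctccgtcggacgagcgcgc
*Dusp1* held the full element from -143 to -136 before its start site, and 1.55% of the 32851 promoters of the same length in the table held it. *Fos* held the TGACG core from -129 to -125 and from -66 to -62, and *Junb* from -106 to -102. The core on either strand, TGACG or CGTCA, was present in 17.8% of all promoters. A match describes the letters of the window and not binding.

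Between 5281 and 10724 probes were detected per array. On the first principal component of all detected probes, which held 48.5% of the variance and correlated with the number of detected probes (*r* = -0.90, a description over 37 arrays), 9 arrays stood apart from the others. They comprised 2 high-score, 2 middle and 5 low-score arrays, and 5281 to 8704 probes were detected on them. The chips fall by their numbering into 2 sets, and set B held 6 of the high-score and 3 of the low-score arrays. The number of detected probes was 8372 ± 1140 (SD, n = 12) on high-score and 8427 ± 1806 (SD, n = 12) on low-score arrays, a difference of -55 that was smaller than the spread (*p* = 0.93, two-sided permutation test). Some of the results below, but not all, are given also without these 9 arrays or within the chip sets.

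*Arc* followed the score most closely of the 4 genes (*r* = 0.77 over 37 arrays, against 0.60 for *Fos*, 0.60 for *Egr1* and 0.41 for *Junb*, which the score itself contains). Its log2 signal had a lowest value of 9.25, a median of 9.91 and a highest value of 10.53 on the high-score arrays, against 8.35, 9.08 and 9.66 on the low-score arrays. The groups overlapped, with 7 high-score arrays above every low-score array.

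*Egr1* had values of 9.23, 10.10 and 10.71 (lowest, median, highest log2 signal) on the high-score arrays and 8.63, 9.47 and 9.87 on the low-score arrays. The middle arrays had a median of 9.53, so that *Egr1* set the high-score arrays apart from the rest more than it set the low-score arrays apart. *Fos* had 4.55, 5.37 and 6.18 on the high-score arrays and 4.00, 4.72 and 5.33 on the low-score arrays. *Fos* lay near the background, with detection on 20 of 37 arrays (7 high-score, 7 middle, 6 low-score) and 5 arrays at the floor of log2 4.00, of which 4 were low-score arrays.

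*Junb* separated the groups least. Its log2 signal was 8.04, 8.89 and 9.53 on the high-score arrays against 7.55, 8.17 and 9.19 on the low-score arrays, and 2 high-score arrays lay above every low-score array. The differences in mean log2 signal were 0.83 for *Fos*, 0.78 for *Arc*, 0.67 for *Egr1* and 0.52 for *Junb*, all fixed in direction by the choice of arrays. On the normalized values deposited by the authors they were 0.19 for *Fos*, 0.70 for *Arc*, 0.62 for *Egr1* and 0.37 for *Junb*, so that *Fos* had the largest difference on the one scale and the smallest on the other. At the edges of the groups, the last high-score mouse had a score of 0.31 and the next mouse 0.21, and the last low-score mouse had -0.36 against -0.35 for the next, so that neither edge fell in a wide gap.

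**Figure D1:**
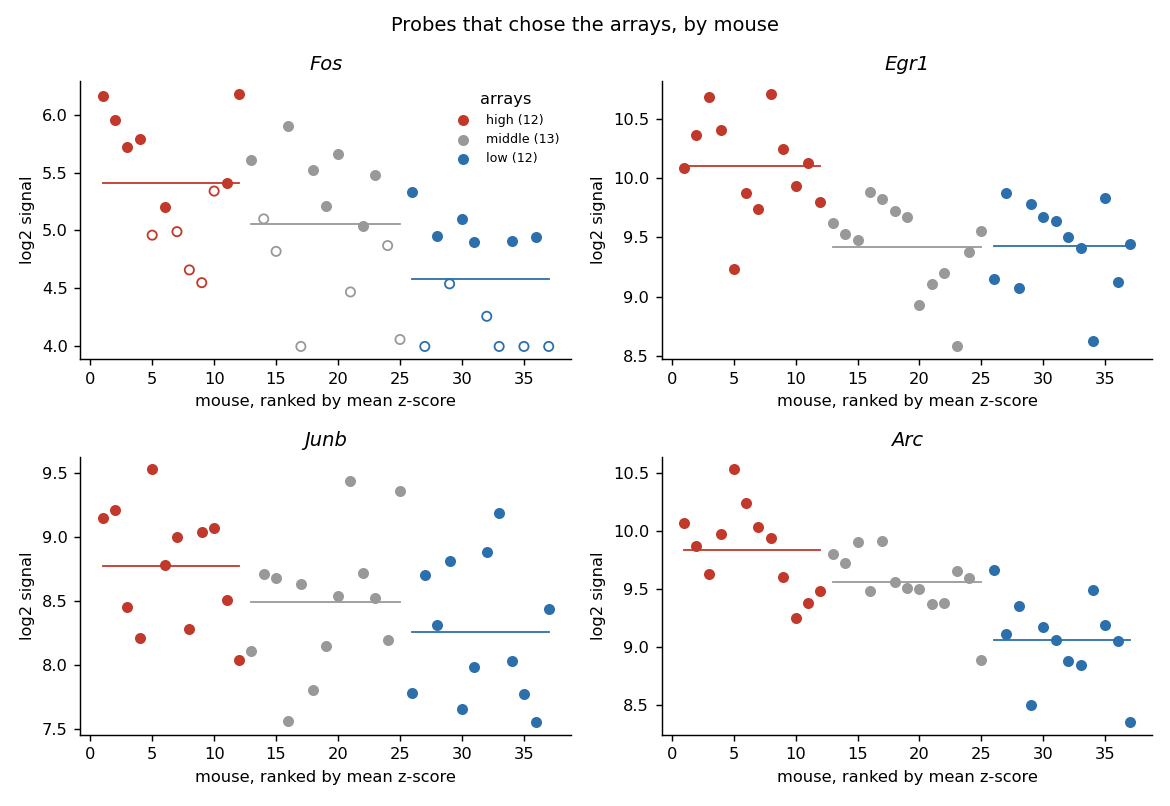
Log2 signal (quantile normalized) of the 4 probes that chose the arrays, in 37 mice ranked from the highest to the lowest score. Open circles are arrays on which the probe was not detected and lines are group means; *Fos* was detected on 20 of 37 arrays, and the high-score and low-score groups overlapped for each gene.

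The 4 genes did not vary as a unit over the 37 mice. Pearson's *r* between pairs, given as a description, was 0.49 for *Fos* and *Arc*, 0.19 for *Egr1* and *Arc*, 0.18 for *Fos* and *Egr1*, 0.14 for *Junb* and *Arc*, 0.06 for *Egr1* and *Junb* and -0.23 for *Fos* and *Junb*. The name high immediate early gene expression therefore describes the mean of the 4 genes and not a joint level, and the groups are called here by their score. Without the 9 arrays set apart, *Junb* and *Arc* had *r* = 0.58 and *Fos* and *Arc* 0.16, the pairs whose values moved most. *Fos* and *Junb* had -0.08 without the 9 and -0.00 on the authors' values. In chip sets A and B they had -0.42 and 0.02, *Fos* and *Egr1* -0.01 and 0.57, and *Junb* and *Arc* -0.17 and 0.51. All pairs share array and RNA sample.

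The 2 AP-1 genes followed the number of detected probes in opposite directions. *Fos* was higher on arrays with more detected probes, with *r* = 0.61 (*p* = 7e-05, adjusted *p* = 2.2e-04) and rho = 0.55 (*p* = 4.8e-04, adjusted *p* = 0.0012). *Junb* was lower on such arrays, with *r* = -0.60 (*p* = 9e-05, adjusted *p* = 2.2e-04) and rho = -0.68 (*p* = 4e-05, adjusted *p* = 2e-04). These are two-sided permutation tests over 37 mice, adjusted by the Benjamini-Hochberg method over 5 relations, those of the 4 genes and the score.

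The *Junb* relation held without the 2 arrays farthest from the median number of detected probes (*r* = -0.81), in chip set A (-0.56), in set B (-0.88) and without the 9 arrays set apart (-0.74). The *Fos* relation was 0.51 without the 2 farthest arrays, 0.76 in set A, 0.17 in set B and 0.31 without the 9 arrays, so that it rested largely on set A and on the arrays set apart. *Egr1* (*r* = -0.14, *p* = 0.4, adjusted *p* = 0.5; rho = -0.16, *p* = 0.34, adjusted *p* = 0.57) and *Arc* (*r* = 0.15, *p* = 0.36, adjusted *p* = 0.5; rho = 0.09, *p* = 0.59, adjusted *p* = 0.74) did not pass this permutation test. The score itself had *r* = 0.01 (*p* = 0.96, adjusted *p* = 0.96; rho = -0.04, *p* = 0.83, adjusted *p* = 0.83, permutation test). Without the 9 arrays its *r* was -0.41, and that of *Arc* was -0.49.

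**Figure D2:**
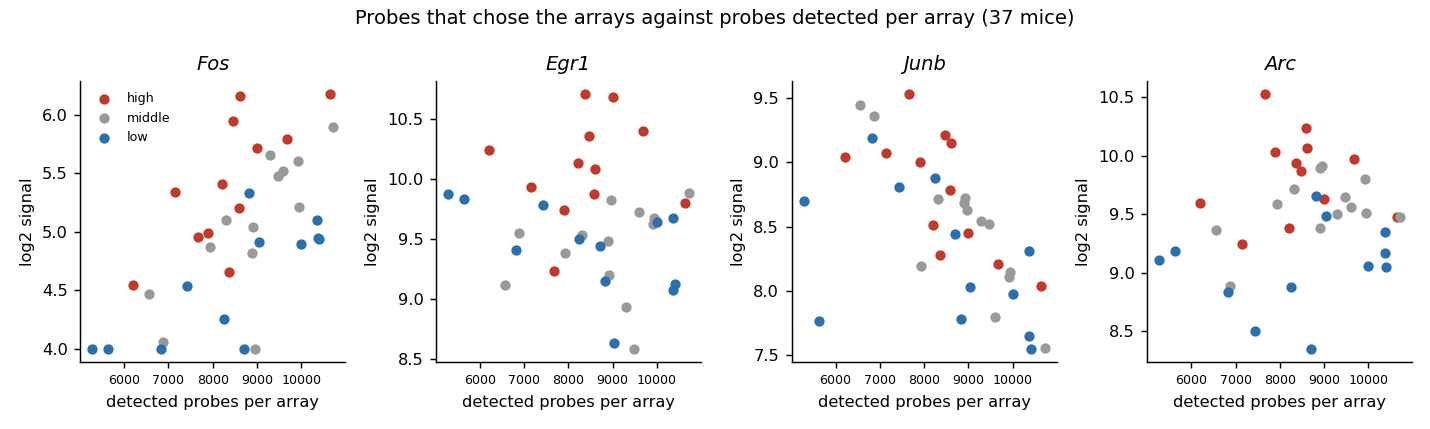
Log2 signal of the 4 genes (vertical axes) against the number of probes detected on the array (horizontal axes), 1 point per mouse, colored by score group. *Fos* had *r* = 0.61 and *Junb* *r* = -0.60 over 37 mice, and *Egr1* and *Arc* had -0.14 and 0.15.

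Whether a gene of the 4 was higher where the others were high was asked by leaving it out of the choice of arrays. *Arc*, on 12 against 12 arrays chosen by *Fos*, *Egr1* and *Junb*, had a log2 signal of 9.25 to 10.53 (median 9.91) on the high arrays and of 8.35 to 9.91 (median 9.27) on the low arrays. The difference in means was 0.56 (95% interval 0.22 to 0.90, *p* = 0.0024, two-sided permutation test, adjusted *p* = 0.0098 over 4 comparisons), larger than the spread between mice. It was 0.48 without the arrays set apart (*p* = 0.0057, exact permutation test, 10 against 9 arrays), 0.43 in chip set A and 0.64 in chip set B. The arrays chosen without *Arc* shared 12 high and 9 low arrays with the high-score and low-score groups. They are thus not a separate set of mice, and the difference concerns *Arc* alone and not a joint level of the 4 genes.

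*Egr1* differed by 0.30 (95% interval -0.13 to 0.73, *p* = 0.16, adjusted *p* = 0.32, permutation test) on arrays chosen by the other 3. *Fos* differed by 0.20 (-0.32 to 0.72, *p* = 0.42, adjusted *p* = 0.57, permutation test) and *Junb* by 0.03 (-0.48 to 0.54, *p* = 0.9, adjusted *p* = 0.9, permutation test). None of these 3 passed the test, and the intervals include differences as large as that of *Arc* for *Egr1* and *Fos*. Without the arrays set apart the differences were 0.48 for *Egr1* (*p* = 0.12, exact permutation test, 11 against 6 arrays), -0.01 for *Fos* (*p* = 0.96, exact permutation test, 10 against 9 arrays) and 0.42 for *Junb* (*p* = 0.17, exact permutation test, 12 against 5 arrays). All 3 moved by over 1.5 times, and none passed. In chip sets A and B they were 0.09 and 0.64 for *Egr1*, 0.04 and 0.35 for *Fos*, and -0.34 and 0.49 for *Junb*. On the authors' values the unadjusted permutation test gave 0.28 (*p* = 0.15) for *Egr1*, 0.13 (*p* = 0.018) for *Fos*, 0.01 (*p* = 0.96) for *Junb* and 0.57 (*p* = 0.0012) for *Arc*.

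**Figure D3:**
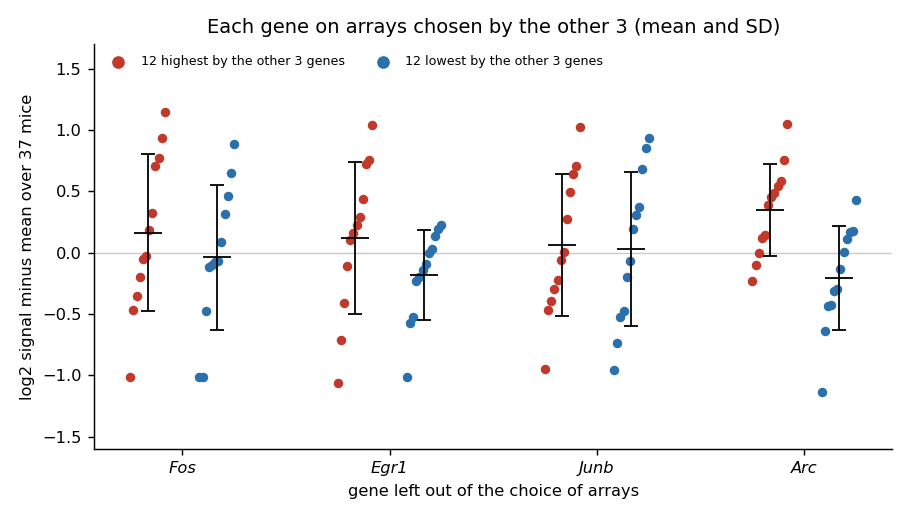
Log2 signal of each gene, minus its mean over 37 mice, on the 12 highest and the 12 lowest arrays chosen by the other 3 genes. Points are mice and bars are the mean and SD; *Arc* differed by 0.56 between the groups, and *Junb* by 0.03.

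No other probe passed the test between the high-score and low-score arrays. Of 8537 probes tested with limma, 0 were higher and 0 lower at an adjusted *p* under 0.05 (0% in either direction), and the smallest adjusted *p* was 0.83. At an unadjusted *p* under 0.05 there were 283 higher (3.31%) and 142 lower probes (1.66%), 4.98% in all. With arrays only centred on their medians and not quantile normalized, this split was 213 higher and 223 lower. The median difference over all probes was 0.05 and the median standard error 0.22 on the log2 scale. No probe had groups without overlap (0%), and 27 differed by more than 1 in log2 signal.

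Other immediate early transcription factors were seen only in part. Of 31 genes on the list, which leaves out the 4 that chose the arrays, 29 had a probe and 14 were detected on at least 19 arrays, each by 1 probe. *Fosb*, *Egr2*, *Egr3*, *Nr4a1* and *Npas4*, transcription factors with strong induction by neuronal activity, had a probe but were not detected on that many arrays. None of the 14 probes passed the adjusted test, and 1 was higher at an unadjusted *p* under 0.05 (7.14%, against 4.98% of all probes). The median difference was 0.19, against 0.05 over all probes, and 10 of the 14 were above 0 (4986 of 8537 over all probes). On the authors' values the median was 0.08 (0.01 over all probes). It was 0.03 with the 18 highest against the 18 lowest arrays (0.05 over all probes) and 0.16 without the 9 arrays set apart (0.04).

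The 1 probe higher at the unadjusted threshold was *Egr4*, a zinc finger factor of the *Egr1* family. Its log2 signal was 5.68, 7.62 and 8.29 on the high-score arrays (lowest, median, highest) and 4.93, 6.64 and 7.72 on the low-score arrays. The groups overlapped over most of their range, and the difference was 0.86 ± 0.30 (SE, unadjusted *p* = 0.008, limma adjusted *p* = 0.83), or 0.38 on the authors' values. *Nr4a2*, an orphan nuclear receptor, had a difference of 0.52 ± 0.30, *Csrnp1*, a nuclear protein first described as a target of axin, of 0.51 and *Per1*, a circadian clock gene with a cAMP-responsive promoter, of 0.37. The Krüppel-like factors *Klf2* and *Klf6* had 0.36 and 0.28. *Csrnp1*, *Per1* and *Klf2* were detected on 31, 28 and 25 of 37 arrays, and their differences were 0.12, 0.10 and 0.06 on the authors' values. *Nr4a2* and *Klf6*, detected on all 37, had 0.32 and 0.24 there. In contrast, *Jun*, the main partner of Fos in AP-1, had a difference of -0.07 ± 0.13. *Srf*, itself induced by the signal that its protein transmits, had a difference of 0.17 ± 0.11.

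Signaling and effector genes of the early response held more of the probes at the unadjusted threshold. Of 26 genes, 16 were detected by 17 probes, and 5 of these were higher and 0 lower at an unadjusted *p* under 0.05 (29.4%, against 4.98% of all probes), while 0 passed the adjusted test. The median difference was 0.19, and 15 of 17 were above 0. The mean log2 signal of the 17 probes ranged from 7.65 to 8.01 on high-score and from 7.15 to 7.75 on low-score arrays. The count was 6 higher and 0 lower without the 9 arrays set apart (35.3%, against 13.1% of all probes) and 4 and 0 with chip set as a block (23.5% against 2.45%). It was 3 and 0 within set A (17.6% against 1.18%), but 3 higher and 2 lower within set B (29.4% against 29.8%). The share was also near that of all probes with the 6 highest against the 6 lowest arrays (17.6% against 17.8%), without *Fos* in the score (23.5% against 21.7%) and without *Junb* (41.2% against 34.4%).

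*Ccn2*, a secreted protein of the extracellular matrix, had the largest difference of the 5. Its log2 signal was 4.38, 6.65 and 7.98 on the high-score arrays and 4.00, 4.92 and 6.79 on the low-score arrays, with detection on 26 of 37. The difference was 1.53 ± 0.38 (SE, unadjusted *p* = 4.2e-04, limma adjusted *p* = 0.83), and no high-score array was at the floor. On the authors' values the difference in *Ccn2* was 0.44.

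*Dusp1*, the feedback phosphatase whose promoter is printed above, was detected on all 37 arrays. Its log2 signal was 8.42, 8.88 and 9.56 on the high-score arrays and 7.69, 8.45 and 8.82 on the low-score arrays. The difference was 0.48 ± 0.14 (SE, unadjusted *p* = 0.0019, limma adjusted *p* = 0.83), with overlapping groups.

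The other 3 also belong to early-response signaling. *Dusp6*, a phosphatase of ERK, had a difference of 0.62 ± 0.23 (unadjusted *p* = 0.011), *Plk3*, a polo-like kinase, of 0.61 ± 0.22 (*p* = 0.0091), and *Spry4*, an inhibitor of receptor tyrosine kinase signaling, of 0.53 ± 0.22 (*p* = 0.026), each with an adjusted *p* of 0.83 in limma. *Homer1*, a postsynaptic scaffold gene with a short activity-induced form, had 2 probes with differences of 0.38 ± 0.40 and 0.04 ± 0.17. Which form each probe measures was not determined here.

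Genes that respond later, or that carry the signal, had no probe higher at an unadjusted *p* under 0.05, and no list was tested as a set. Of 18 probes of late activity-regulated neuronal genes, 0 were higher and 0 lower at that threshold (0%, against 4.98% of all probes). Their median difference was 0.06. With the score as a covariate over all 37 arrays, 3 were higher and 0 lower (16.7%, against 16.4% of all probes). Within chip set B 3 were higher and 5 lower (44.4%, against 29.8%). Without the 9 arrays set apart 1 was higher and 1 lower (11.1%, against 13.1%). Without *Junb* in the score, 4 were higher and 0 lower at an adjusted *p* under 0.05 in limma. There 22.2% of the list passed the unadjusted threshold, against 34.4% of all probes. *Nptx2*, a secreted pentraxin that clusters AMPA receptors, had a difference of 0.31 ± 0.25, and *Nptx1*, of the same family, of 0.46. *Baiap2*, a scaffold of the postsynaptic density, had 2 probes at 0.60 and 0.54, the largest differences of the list. The 18 probes of the MAP kinase, CREB and SRF pathway likewise had 0 in each direction and a median of 0.11, with 13 of them above 0. *Crtc1*, a coactivator of CREB, had 2 probes. The 1 detected on 27 of 37 arrays had the largest difference of this list, 0.59 (unadjusted *p* = 0.091 in limma), or 0.16 on the authors' values. The other, detected on all 37 arrays, had 0.22 ± 0.14. *Mef2a*, an activity-dependent transcription factor, had -0.43 (unadjusted *p* = 0.22 in limma), or -0.11 on the authors' values. Among 14 probes of glucocorticoid target genes, 0 were higher and 1 lower (7.14%, near the 4.98% of all probes), with a median of 0.02. That 1 was *Sult1a1*, a phenol sulfotransferase, at -0.50 ± 0.12 (unadjusted *p* = 3e-04, limma adjusted *p* = 0.83), or -0.28 on the authors' values.

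**Figure D4:**
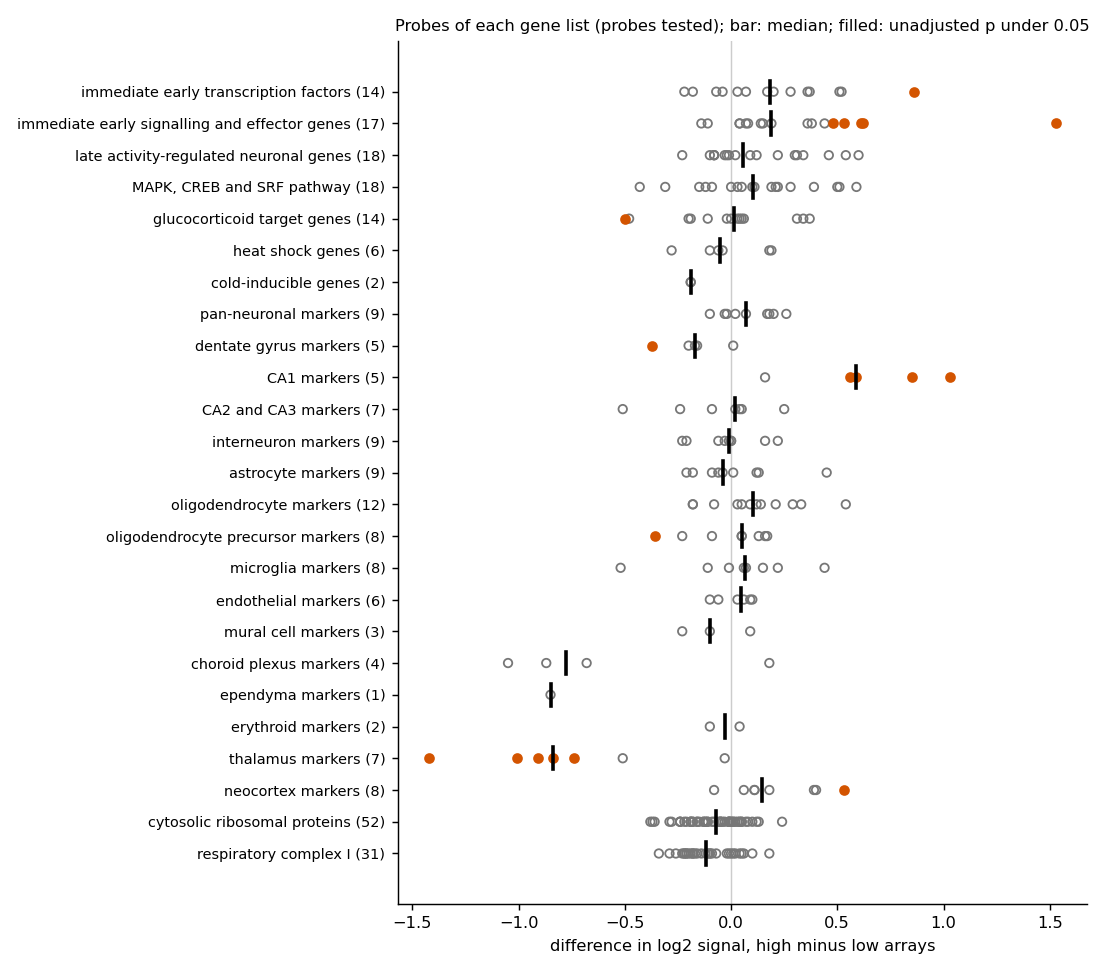
Difference in log2 signal between the 12 high-score and 12 low-score arrays (horizontal axis) for each tested probe of each gene list (rows, number of probes in parentheses). Filled points had an unadjusted *p* under 0.05 and bars are list medians; the medians were 0.59 for CA1 markers and -0.84 for thalamus markers, and no probe passed the adjusted test.

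Markers of CA1 were higher and markers of the thalamus lower at the unadjusted threshold. CA1 is the hippocampal field that sends the main output, and the thalamus lies beneath the hippocampus. Of 5 CA1 marker probes, 4 were higher and 0 lower at an unadjusted *p* under 0.05 (80%, against 4.98% of all probes) and 0 passed the adjusted test, with a median difference of 0.59. Of 7 thalamus marker probes, 0 were higher and 5 lower (71.4%) and 0 passed the adjusted test, with a median of -0.84. On the authors' values the thalamus median was -0.42, with 4 lower and 1 of the 7 above 0. The mean log2 signal of the CA1 probes ranged from 9.60 to 11.05 on high-score and from 8.89 to 10.45 on low-score arrays, and that of the thalamus probes from 6.10 to 8.45 and from 7.03 to 8.97. In tissue punches, fewer cells of a type and less RNA per cell cannot be told apart.

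*Wfs1*, a membrane protein of the endoplasmic reticulum and a marker of CA1 pyramidal cells, had a log2 signal of 8.24, 8.99 and 9.82 on the high-score arrays and of 6.77, 7.86 and 9.19 on the low-score arrays. The difference was 1.03 ± 0.25 (SE, unadjusted *p* = 3.9e-04, limma adjusted *p* = 0.83), or 0.65 on the authors' values. *Prkcd*, a protein kinase C with high expression in the thalamus, had 5.27, 7.01 and 8.74 on the high-score arrays and 6.27, 8.15 and 9.72 on the low-score arrays, a difference of -1.42 ± 0.39 (unadjusted *p* = 0.0012, limma adjusted *p* = 0.83), or -0.74 on the authors' values. Both pairs of groups overlapped. *Slc17a6*, the vesicular glutamate transporter of thalamic neurons, was detected on all 37 arrays, with a difference of -1.01 ± 0.44. *Tcf7l2*, *Zic1* and *Rora*, transcription factors of thalamic neurons, had differences of -0.84, -0.91 and -0.74. *Pou3f1*, a transcription factor of CA1 pyramidal cells, had 0.85 ± 0.33 and *Fibcd1*, a receptor for acetylated compounds with high expression in CA1, 0.56 ± 0.27.

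The CA1 count was 3 of 5 and the thalamus count 5 of 7 both with chip set as a block, where 2.45% of all probes passed, and without the 9 arrays set apart, where 13.1% passed. Within chip set A the counts were 2 and 3, with 1.18% of all probes. Within chip set B they were 1 and 1 (20% and 14.3%), below the 29.8% of all probes there. With *Arc* left out of the score they were 2 and 4, with 5.08% of all probes. Without *Fos* they were 4 and 4, with 21.7% of all probes, and without *Egr1* 3 and 2, with 15.6%. Without *Junb* they were 4 and 2 (80% and 28.6%), with 34.4% of all probes, so that the thalamus share was below that of all probes there. With the 6 highest against the 6 lowest arrays they were 4 and 2 (80% and 28.6%), with 17.8% of all probes. The other fields differed less. The 5 dentate gyrus probes had a median of -0.17, with 1 lower at the unadjusted threshold, *Prox1*, a transcription factor of granule cells (-0.37 ± 0.16). In a list of 5, 1 probe is 20%, against 4.98% of all probes, and with chip set as a block the count was 0. The 7 CA2 and CA3 probes had a median of 0.02 with 0 in either direction. The 4 choroid plexus probes had a median of -0.78 and 0 past the unadjusted threshold, with mean levels from 5.47 to 8.09 on high-score and from 4.96 to 10.02 on low-score arrays. Their median was 0.33 without the 9 arrays set apart, 0.64 in chip set B and 0.06 without *Fos* in the score, so that its sign depended on these choices. The part of tissue composition in the differences of the early-response genes was not tested.

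**Figure D5:**
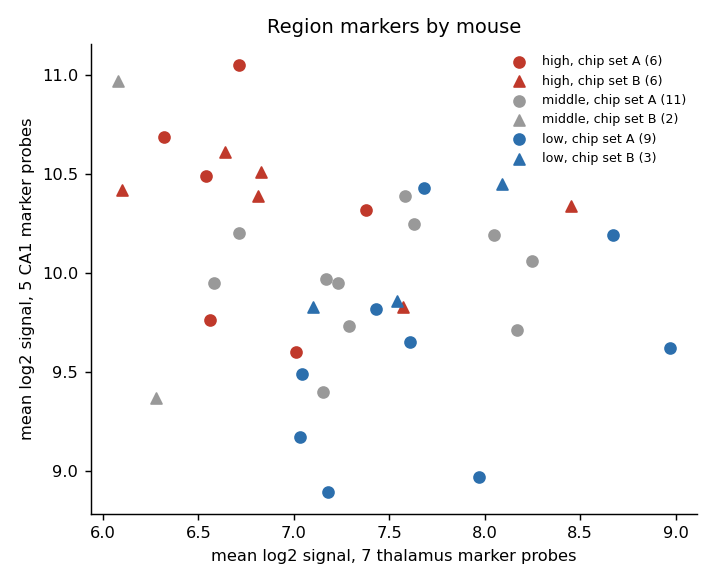
Mean log2 signal of 5 CA1 marker probes (vertical axis) against that of 7 thalamus marker probes (horizontal axis), 1 point per mouse, colored by score group and shaped by chip set. CA1 levels ran from 9.60 to 11.05 in high-score and from 8.89 to 10.45 in low-score mice, and the groups overlapped on both axes.

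Astrocyte, oligodendrocyte, microglia and endothelial markers had medians between -0.04 and 0.10, with 0 probes at the unadjusted threshold in each list. The 9 pan-neuronal probes had a median of 0.07, also with 0. Cytosolic ribosomal proteins (52 probes, median -0.07) and respiratory complex I (31 probes, median -0.12) likewise had 0 probes at that threshold. Some alternatives differed. With detected probes as a covariate, 0 complex I probes were higher and 6 lower (19.4%, against 12.8% of all probes). Without *Junb* in the score, 6 were lower at an adjusted *p* under 0.05 in limma. With 6 against 6 arrays, 1 ribosomal probe was higher and 9 lower (19.2%, against 17.8%). Among 8 neocortex probes, 1 was higher and 0 lower, *Tbr1*, a transcription factor of cortical glutamatergic neurons (0.53, unadjusted *p* = 0.039 in limma). Among 8 oligodendrocyte precursor probes 0 were higher and 1 lower, *Pdgfra*, a growth factor receptor (-0.36, unadjusted *p* = 0.023 in limma). In lists this small, 1 probe is 12.5%, against 4.98% of all probes. On the authors' values the differences were 0.15 for *Tbr1* and -0.26 for *Pdgfra*, and the neocortex count was 0. Interneuron, mural cell, ependyma, erythroid, heat shock and cold-inducible lists had 0 probes at the unadjusted threshold. No probe of any list passed the adjusted test between the 12 high-score and 12 low-score arrays.

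*Arc* lies on chromosome 15, the chromosome that segregates in these mice. Of 332 tested probes for other genes of chromosome 15, 21 were higher and 9 lower at an unadjusted *p* under 0.05 (9.04%), against 4.8% of 7271 probes on other chromosomes, and 0 passed the adjusted test. With *Arc* left out of the score the share was 7.53%, against 5.08% of all probes. Without the 9 arrays set apart it was 14.2%, against 13.1%. It was 0.904% within chip set A, against 1.18% of all probes, and 29.2% within chip set B, against 29.8%. The larger share was thus present in neither set alone. In the fit of both sets with chip set as a block, however, the share was 5.72%, against 2.45% of all probes. Differences ran from -2.24 to 1.01 on chromosome 15, against -1.42 to 1.53 on other chromosomes. The paper regards probes of this chromosome whose sequence differs between A/J and C57BL/6J as likely artifacts. Such probes were not removed here, and their part in these counts was not tested. Among the named genes, *Mpped1*, a CA1 marker, lies on chromosome 15 (0.59 ± 0.20).

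The 13 middle mice, with scores from -0.35 to 0.21, were not used in the comparison. In these, 0 of 8537 probes rose and 0 fell with the score at an adjusted *p* under 0.05 in limma. At an unadjusted *p* under 0.05, 204 of the 8537 rose and 130 fell. Of the 425 probes at the unadjusted threshold between the high-score and low-score arrays, 253 had a slope of the same sign in the middle mice. The share with the same sign among all 8537 probes was not counted, so the 253 cannot be read as a repeat of the differences. Many of these probes vary together, and no test was made of this count.

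The outcome turned on which genes made the score. With *Junb* left out, 734 probes were higher and 342 lower at an adjusted *p* under 0.05, and with *Fos* left out 99 were higher and 109 lower, whereas leaving out *Egr1* or *Arc* gave 0 in either direction. Without *Junb*, the high arrays had 8980 and the low arrays 7948 detected probes on average, and 0 of the high and 7 of the low arrays were among the 9 set apart. Without *Fos*, the means were 8290 and 9188 detected probes. Without *Egr1*, where no probe passed, the means were 8730 and 8265, and 1 of the high and 6 of the low arrays were among the 9. Without *Arc* the means were 8372 and 8877. The part of array quality in these calls was not tested.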

How the data were processed

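Hippocampal RNA of 37 mice was hybridized to 1 Illumina bead array each. The intensity values were deposited by the authors as background corrected in BeadStudio, without normalization between arrays, and 30.8% of them lie below 0. The detection score was deposited beside each intensity as a fraction from 0 to 1, and a probe counted as detected on an array with a score over 0.99. The deposited log2 values, which served as an alternative, had been variance stabilized and spline normalized by the authors with lumi. Probes of the log2 table were matched to those of the intensity table by their values (24613 of 24613). Gene symbols came from the platform annotation: 20984 probes had 1 symbol, 1 had several and 3635 had none. Chromosomes and promoters came from RefSeq tables of GRCm38.p6. Number of columns left without a sample: 0.

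Intensities were quantile normalized, floored at 16 and log2 transformed. The 8541 probes detected on at least 19 arrays, without those of the 4 genes, were compared with limma 3.58.1 (lmFit, eBayes) in R 4.3.3, with Benjamini-Hochberg adjustment over all 8537. The 95% intervals and standard errors are from that fit, or for left-out genes from the pooled SD. Other tests were two-sided permutation tests with 100000 resamples. The labels name separate mice, and precision is set by the number of mice and by how far a signal stands above background. The fit was tested on simulated data.

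Genes, lists and tests were chosen with earlier results of these data known. Named were the 4 genes, up to 6 members of each immediate early and late list and up to 4 of every other list by size of difference. The rule also asked for the 10 largest differences past the adjusted threshold in each direction, of which there were 0. *Jun*, *Srf*, *Homer1*, *Rora* and genes with no detected probe were named outside that rule, after their values were seen. Each gene was also left out of the score in turn, and the permutation tests of the left-out genes were not among the planned tests. The checks of those comparisons, the list counts under alternatives and the settings without the arrays set apart were chosen after seeing the data. Alternatives were other normalizations, floors, detection filters, batch terms and group sizes.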

Additional observations from a re-analysis of the deposited data

How the results depend on the processing

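In 18 of 21 alternatives no probe passed an adjusted p under 0.05 in limma, as with the values reported. Calls arose in chip set B alone (6 against 3 arrays), with 191 probes higher and 237 lower, without *Fos* in the score (99 and 109) and without *Junb* in the score (734 and 342). In chip set B the high-score arrays had 8536 and the low-score arrays 10383 detected probes on average. The cause was not tested. At an unadjusted p under 0.05 the count ran from 101 probes in chip set A to 2934 without *Junb*. The groups of 12 were the same when chosen on the authors' values, on background-modelled values or on values adjusted for detected probes, settings chosen after seeing the data and not among the 21. Of 100 named differences, 54 moved by over 1.5 times or turned on the authors' values, and 82 were smaller there. Of 2261 values of 96 named probes under the alternatives, 167 had the opposite sign or rounded to 0. All of these but 1 passed the threshold in neither fit, the exception being a *Trf* probe, an oligodendrocyte marker, at -1.37 in chip set B (adjusted p = 0.048). The difference in detected probes, -55, was 525 with the 6 highest against the 6 lowest arrays (p = 0.51, exact permutation test), and the cause was not tested. No paired analysis was possible because all mice belong to 1 labelled group and their numbers name single animals. With a median standard error of 0.22 on the log2 scale and *Fos* detected on 20 arrays, small differences were not measurable here.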
